A study of Triticum turgidum subsp. durum with 24 samples.

Results

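The genes described here had their highest expression in durum wheat endosperm at 8 days post anthesis (dpa) and lower expression on either side of that timepoint. They were chosen from the timepoint means of TPM (the relative abundance of transcripts, which allows for transcript length and adds up to the same total in each library). A gene entered if its highest mean was at 8 dpa, that mean was at least 10 TPM, and it was not on the list of starch-related genes compiled in the study. Of 66559 genes, 3176 met these conditions. They were ranked by log2 of the 8 dpa mean over the higher of the 6 and 13 dpa means, with 0.1 TPM added to each, and the 150 with the largest values were taken as members. The ranking value ran from 2.91 to 0.64, with a median of 0.98. It was set by the 6 dpa mean in 137 members and by the 13 dpa mean in 13.

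All 24 libraries came from wild type plants of the variety Kronos grown in controlled environment rooms, with no treatment, and differ only in the time of harvest: 6, 8, 10, 13, 15, 18, 20 and 30 dpa, with 3 replicates each. Each library was made from poly-A RNA of dissected endosperm, pooled from 6 grains at 6, 8 and 10 dpa, from 4 at 13, 15 and 18 dpa and from 3 at 20 and 30 dpa. Replicates of a timepoint came from separate plants, while some plants gave grains to more than 1 timepoint. All values are from a single variety and a single growth environment.

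The cereal endosperm starts as a syncytium that becomes cellular in the first days after fertilisation. Its cells then take on separate fates, as starchy endosperm, aleurone and transfer cells, and the starchy endosperm divides before it turns to the synthesis of starch and storage protein. Genes that are active for a short time during the change from division to filling therefore stand apart from the storage genes, which stay high into late filling. The files and the reference annotation give only gene IDs for the members, with no product names, so the genes are described by ID, position, coding length and expression. IDs with A or B carry the chromosome in their name, and IDs with 0U belong to genes not placed on a chromosome.

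The libraries held 56180606 to 115800050 estimated counts, with a median of 62724761. The 8 starchy endosperm marker genes (AGPS1, cAGPL, BT1.1 and GBSS1, which act in ADP-glucose synthesis, ADP-glucose transport and amylose synthesis) were detected in every library, with sums of 385 to 6503 TPM. GBSS2, a granule-bound starch synthase known from the pericarp, ranged from 0.208 to 14.5 TPM. The labelled tissue was therefore represented by its markers throughout. Estimated counts for all 150 members passed the filter used for testing, at least 10 counts in at least 3 libraries, as did 44240 genes in all.

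Mean expression of the members at 8 dpa ranged from 10.0 to 1468 TPM, with a median of 65.9 TPM, and 56 members were at 100 TPM or more. With the 8 dpa mean set to 100%, the median member stood at 49.98% (6 dpa), 52.3% (10 dpa), 9.47% (13 dpa), 3.08% (15 dpa), 0.885% (18 dpa), 0.317% (20 dpa) and 0.00459% (30 dpa). With counts scaled by trimmed mean of M values (TMM) in place of TPM, the late medians were higher. They were 50.4% (6 dpa), 61.2% (10 dpa), 12.4% (13 dpa), 5.17% (15 dpa), 1.69% (18 dpa), 0.616% (20 dpa) and 0.0124% (30 dpa). On both scales the decline after 10 dpa was much deeper than the difference from 6 dpa. The 3026 other genes that were also highest at 8 dpa with at least 10 TPM had medians in TPM of 89.4% (6 dpa), 82.2% (10 dpa), 60.6% (13 dpa) and 23.3% (30 dpa). The values at 6 and 13 dpa chose the members, so no p-value is given for them, and calls between these timepoints appear below only as a description.

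**Figure D1:**
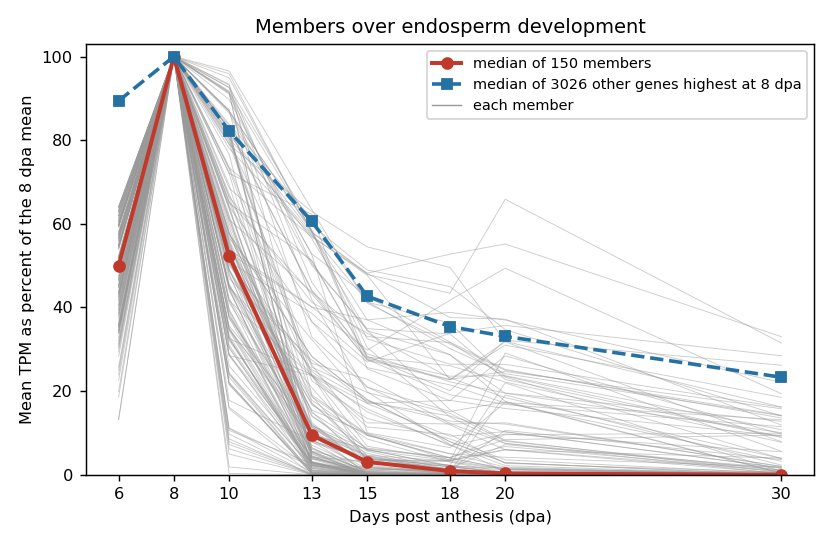
Mean TPM of each member as percent of its 8 dpa mean (vertical axis) against days post anthesis (horizontal axis, to scale), with grey lines for the 150 members, red circles for their median and blue squares for the median of the 3026 other genes highest at 8 dpa. The median member is at 49.98% (6 dpa), 52.3% (10 dpa) and 9.47% (13 dpa), below the other genes at each of these times.

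The peak was modest in height for most members. The 8 dpa mean was a median of 2.00 times the 6 dpa mean (range 1.56 to 7.55), at least 2 times it in 75 members and at least 4 times it in 6. In 39 members the 8 dpa mean was at least 2 times every other timepoint mean. The loss of expression after the peak was close to complete in many members. Their number with a mean under 1 TPM was 3 (10 dpa), 29 (13 dpa), 68 (15 dpa), 85 (18 dpa), 88 (20 dpa) and 111 (30 dpa). No count was estimated in any of the 3 libraries for 6 members (13 dpa), 50 members (20 dpa) and 72 members (30 dpa), and a count of 0 in a library allows an expected count of up to 3. At 30 dpa, 39 members were still at 1 TPM or more and 20 at 10% or more of their 8 dpa mean.

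Summed over the 150 members, expression as a share of all TPM was 1.11 ± 0.172% (6 dpa), 2.32 ± 0.686% (8 dpa), 1.27 ± 0.388% (10 dpa), 0.343 ± 0.168% (13 dpa), 0.176 ± 0.0359% (15 dpa) and 0.0342 ± 0.00495% (30 dpa), each with its SD over 3 replicates. The 3 libraries of 8 dpa had sums of 31116, 18906 and 19606 TPM, above each of the other libraries. The replicates were unequal at 10 dpa as well, with 17210, 10120 and 10920 TPM, and at 13 dpa, with 5180, 3280 and 1824 TPM. Replicate 1 was the highest at 6, 8, 10 and 13 dpa.

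The starchy endosperm markers also differed between replicates, in another order. Their sum was 1745, 2592 and 1401 TPM in replicates 1, 2 and 3 of 8 dpa, and 2225, 6503 and 5580 TPM in those of 10 dpa. At 10 dpa the library with the highest sum over the members therefore had the lowest sum over the starchy endosperm markers. At 13 dpa replicate 1 was highest in both, with a marker sum of 6059 TPM, beside 5066 and 2704 TPM in replicates 2 and 3. The pericarp gene GBSS2 averaged 5.11 ± 0.965 TPM at 6 dpa, 10.1 ± 2.70 TPM at 8 dpa, 11.7 ± 2.92 TPM at 10 dpa and 5.99 ± 1.5 TPM at 13 dpa (SD, n = 3 each), so it too was higher at 8 and 10 dpa. Its values in replicates 1, 2 and 3 of 8 dpa were 10.6, 12.4 and 7.13 TPM, which is not the order of the members. The part of tissue composition in the expression of the members was not tested. In pooled tissue, fewer cells of a type and less RNA per cell cannot be told apart.

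**Figure D2:**
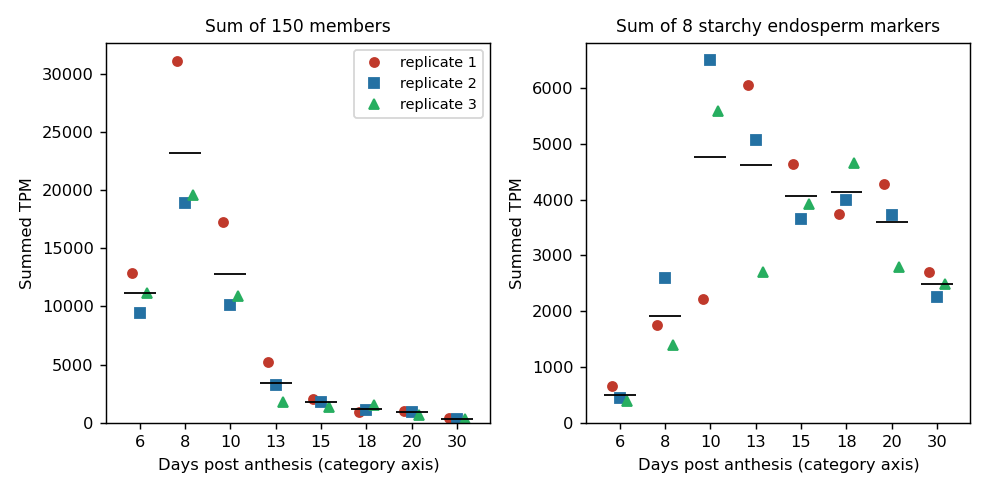
Summed TPM per library at each timepoint (days post anthesis, category axis) for the 150 members (left) and the 8 starchy endosperm markers (right), with a symbol per replicate and a black bar for the mean of 3. The members peak at 8 dpa with 31116, 18906 and 19606 TPM and are at 377 TPM or less at 30 dpa, while the markers are highest at 10 and 13 dpa.

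The genes with the largest ranking values were TRITD0Uv1G015940 and TRITD0Uv1G116420 (ranking value 2.91 each). Both have a coding length of 387 bases and identical values in every library, so their reads were shared between them and they count as a single profile. Each had 14, 16.9 and 26.7 TPM at 6 dpa, 207, 132 and 96.2 TPM at 8 dpa, 219, 67.3 and 73.5 TPM at 10 dpa and 11.1, 1.68 and 0 TPM at 13 dpa. The rise above 6 dpa was seen in every library of 8 dpa, but the libraries of 8 and 10 dpa overlapped, and with counts scaled by trimmed mean of M values (TMM) the highest timepoint was 10 dpa.

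TRITD5Bv1G248590 (ranking value 2.41, chromosome 5B, 691130879 to 691140291, coding length 1236 bases) had 13.9, 3.22 and 8.17 TPM at 6 dpa, 52.1, 46.7 and 37.4 TPM at 8 dpa, 23.7, 33.6 and 33.2 TPM at 10 dpa and 10.3, 5.70 and 1.05 TPM at 13 dpa. All libraries of 8 dpa lay above all libraries of any other timepoint. TRITD4Bv1G140150 (2.15, 4B, 486903144 to 486903722, 579 bases) had 31.5, 27.9 and 26.5 TPM at 6 dpa, 148, 171 and 113 TPM at 8 dpa, 125, 59.6 and 162 TPM at 10 dpa and 42.6, 42.5 and 11.6 TPM at 13 dpa. Its libraries of 8 and 10 dpa overlapped, and it was still at 5.15 ± 3.14 TPM at 20 dpa. TRITD7Av1G181580 (2.02, 7A, 493273627 to 493276169, 1071 bases) was a low-expressed gene without overlap, with 4.11, 2.37 and 2.83 TPM at 6 dpa, 15.1, 14.2 and 9.52 TPM at 8 dpa and 6.21, 3.04 and 6.90 TPM at 10 dpa. TRITD2Av1G029410 (1.97, 2A, 60309081 to 60309704, 624 bases) had 5.74, 1.42 and 5.29 TPM at 6 dpa, 24.3, 12.1 and 13.4 TPM at 8 dpa and 6.02, 4.58 and 6.90 TPM at 10 dpa. It was among the members lost completely, with 0 TPM in all libraries of 18, 20 and 30 dpa.

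TRITD4Av1G256310 and TRITD4Av1G256320 followed in the ranking (1.95 and 1.82) and are neighbours on chromosome 4A, 21008 bases apart, at 718395833 to 718396501 and 718417509 to 718418129, with coding lengths of 669 and 621 bases. TRITD4Av1G256310 had 32.6, 6.16 and 16.3 TPM at 6 dpa, 92.4, 53.3 and 67.6 TPM at 8 dpa, 45.1, 36.6 and 35.8 TPM at 10 dpa and 18.7, 8.75 and 2.21 TPM at 13 dpa. TRITD4Av1G256320 had 115, 24.8 and 46.5 TPM at 6 dpa, 268, 182 and 208 TPM at 8 dpa, 146, 93.5 and 120 TPM at 10 dpa and 42.6, 26.6 and 6.09 TPM at 13 dpa. In both genes the 8 dpa libraries stood clear of the rest, and replicate 1 was the highest at 6, 8, 10 and 13 dpa. The last of the 10 genes highest in the ranking were TRITD6Bv1G123090 (1.73), with a mean of 10.0 ± 2.2 TPM at 8 dpa, and TRITD2Av1G006400 (1.70), with 14.6 ± 4.10 TPM at 10 dpa and 15.7 ± 4.44 TPM at 8 dpa (SD, n = 3 each). The libraries of 8 and 10 dpa overlapped in both.

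The most abundant member was TRITD7Av1G006260, with 880, 434 and 674 TPM at 6 dpa, 1799, 1239 and 1367 TPM at 8 dpa, 653, 271 and 408 TPM at 10 dpa, 71.7, 41.1 and 3.55 TPM at 13 dpa and 12.5, 3.06 and 1.16 TPM at 15 dpa. The second was TRITD7Av1G005960, with 744, 298 and 509 TPM at 6 dpa, 1633, 956 and 997 TPM at 8 dpa, 727, 541 and 484 TPM at 10 dpa and 233, 138 and 52.2 TPM at 13 dpa. These genes lie near each other on chromosome 7A, at 10194771 to 10208936 and 9595506 to 9596141, and another member, TRITD7Av1G006070 (9845893 to 9846498), lies between them. It had 118, 31.9 and 58.9 TPM at 6 dpa, 192, 153 and 158 TPM at 8 dpa, 142, 72.0 and 88.5 TPM at 10 dpa and 29.7, 17 and 8.75 TPM at 13 dpa. The coding lengths of the 3 genes are 657, 636 and 606 bases. In each of the 3, the libraries of 8 dpa lay above all others and replicate 1 was the highest at 8, 10 and 13 dpa. They parted later, since TRITD7Av1G005960 kept 13.3 ± 3.41 TPM at 20 dpa, beside 0.122 ± 0.115 TPM for TRITD7Av1G006260 and 0.692 ± 0.315 TPM for TRITD7Av1G006070 (SD, n = 3 each).

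The next most abundant members differed among themselves in shape. TRITD2Av1G292000 (2A, 768310801 to 768311187, coding length 387 bases) had 307, 356 and 381 TPM at 6 dpa, 1657, 826 and 598 TPM at 8 dpa, 1256, 770 and 494 TPM at 10 dpa and 205, 67.1 and 19.5 TPM at 13 dpa, with overlap between 8 and 10 dpa. TRITD2Av1G026900 (2A, 53762469 to 53764024, 1122 bases) barely peaked, with 584, 721 and 512 TPM at 6 dpa, 989, 1012 and 881 TPM at 8 dpa, 631, 995 and 1157 TPM at 10 dpa and 810, 654 and 363 TPM at 13 dpa. Its mean at 30 dpa was 14.2% of that at 8 dpa, and by TMM-scaled counts its highest timepoint was 10 dpa. TRITD1Av1G205890 (1A, 536709767 to 536710405, 639 bases) had 513, 290 and 360 TPM at 6 dpa, 799, 549 and 606 TPM at 8 dpa and 412, 293 and 324 TPM at 10 dpa. Like the genes on 7A, it had no overlap and was highest in replicate 1.

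The rule used means, and the 3 libraries of 8 dpa were compared with the other 21 for each member. In 56 members (37.3%) all libraries of 8 dpa lay above every other library, which was the case for 1.14% of all genes tested and for 5.52% of the 3026 other genes highest at 8 dpa. The rule favours such genes, and the count describes how firmly the choice rests on single libraries. With TMM-scaled counts (CPM) in place of TPM the number was 29. No share over all genes is given on that scale, so this number is not read against one. By that scale 131 members had their highest mean at 8 dpa, 17 at 10 dpa and 2 at 20 dpa.

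Replicate 1 of 8 dpa held the highest 8 dpa value in 120 members (80.0%), replicate 2 in 17 and replicate 3 in 13. Among the 3026 other genes replicate 1 was highest in 64.5%. In 36 members (24%) replicate 1 was at least 2-fold above both other replicates, against 0.826% of the other genes. Summed over these 36 members, 8 dpa had 9276, 3559 and 3255 TPM, 10 dpa had 5465, 2139 and 1746 TPM and 13 dpa had 514, 144 and 58.8 TPM. Replicate 1 was also the highest at 10 dpa in 33 of the 36 and at 13 dpa in 35, whereas at 6 dpa replicate 3 was highest in 28. Of the 36, 32 had no counts at 30 dpa. The remaining 114 members summed to 21839, 15347 and 16351 TPM at 8 dpa.

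**Figure D3:**
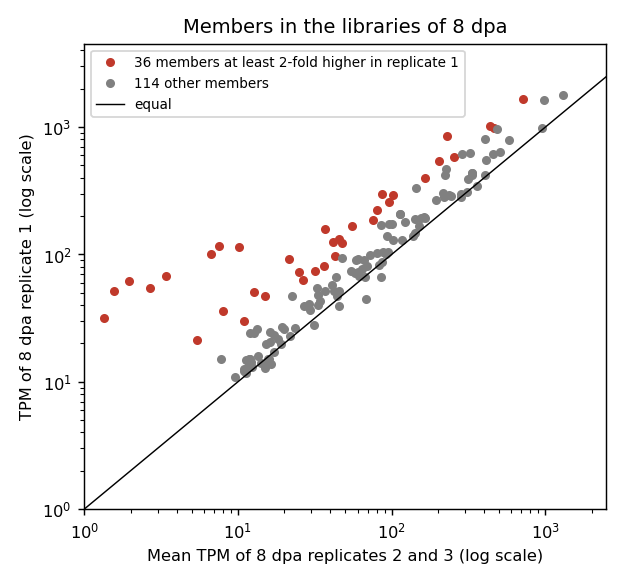
TPM of each member in replicate 1 of 8 dpa (vertical axis) against the mean of replicates 2 and 3 (horizontal axis), both on log scales, with the line of equal values. The 36 members in red are at least 2-fold higher in replicate 1 than in either other replicate, and the other 114 are in grey. Some grey points lie as far from the line as the nearest red ones, since the axis averages replicates 2 and 3.

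Without replicate 1 of 8 dpa, 129 of the 150 members kept their highest mean at 8 dpa, 11 were highest at 6 dpa and 10 at 10 dpa. Of the 36, 20 remained highest at 8 dpa. The median ratio of the 8 dpa to the 6 dpa mean was then 1.70 over all members, 1.23 over the 36 (2.26 with the library) and 1.75 over the remaining 114. The rule applied again without this library returned 105 of the 150 genes. Most members thus kept their highest mean at 8 dpa without this library, at a lower height. The other libraries of 8 dpa also entered the means that chose the members. This count is therefore a description and no independent check of the peak, and it was not set against other genes.

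The members that rested most on that library were a set of 7 genes on chromosomes 4A, 5A and 5B with coding lengths of 300 to 393 bases. TRITD5Av1G002730 and TRITD5Av1G002740 in this set were singled out after their values were seen. Summed over the 7 genes, expression was 73.9, 32.5 and 102 TPM at 6 dpa, 484, 26.5 and 23.7 TPM at 8 dpa, 46.7, 1.58 and 4.08 TPM at 10 dpa and 1.04, 0.0535 and 0.714 TPM at 13 dpa. Replicates 2 and 3 of 8 dpa were below every library of 6 dpa, so for these genes the peak was that of a single library.

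Within the set, TRITD5Bv1G002720, TRITD5Bv1G002770 and TRITD5Bv1G002780 are neighbours on 5B, at 6866205 to 6888259, 7051647 to 7052134 and 7109055 to 7109470. TRITD5Bv1G002780 had 21.9, 8.25 and 21 TPM at 6 dpa, 116, 7.07 and 7.91 TPM at 8 dpa and 13.1, 0.458 and 0.873 TPM at 10 dpa. TRITD5Bv1G002770 had 8.28, 3.93 and 15.5 TPM at 6 dpa, 67.1, 3.51 and 3.26 TPM at 8 dpa and 1.39, 0 and 0 TPM at 10 dpa. TRITD5Bv1G002720 had 7.55, 2.1 and 9.5 TPM at 6 dpa, 54.3, 2.49 and 2.89 TPM at 8 dpa and 4.82, 0 and 0.298 TPM at 10 dpa. The same library stood apart in the pair on 4A, TRITD4Av1G008580 and TRITD4Av1G008590, which lie 5153 bases apart at 18295916 to 18296407 and 18301560 to 18302051. TRITD4Av1G008580 had 4.45, 3.91 and 13.4 TPM at 6 dpa, 51.8, 2.12 and 0.989 TPM at 8 dpa and 0.177, 0 and 0 TPM at 10 dpa. TRITD4Av1G008590 had 10.2, 4.35 and 12.3 TPM at 6 dpa, 62.0, 2.64 and 1.26 TPM at 8 dpa and 3.01, 0 and 0.253 TPM at 10 dpa. Genes of like length at neighbouring positions can share reads, and how the reads were divided among these 7 genes was not tested.

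**Figure D4:**
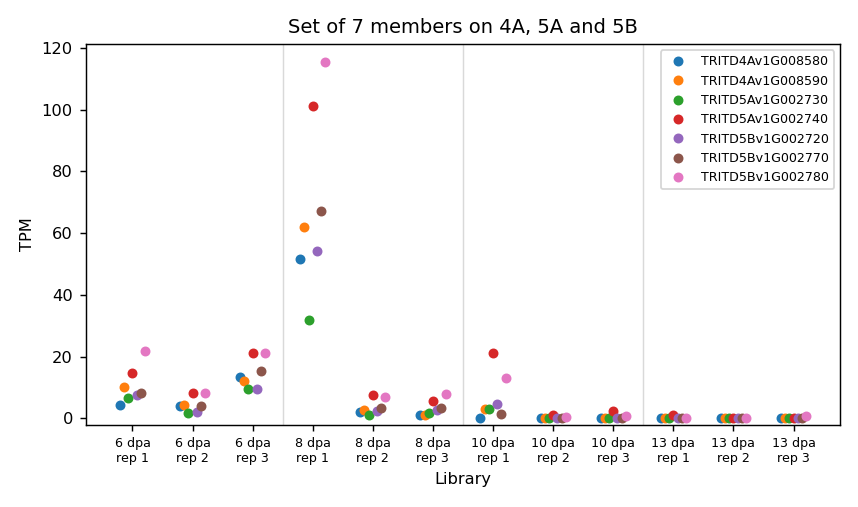
TPM of the 7 members on chromosomes 4A, 5A and 5B (vertical axis) in each library of 6, 8, 10 and 13 dpa (horizontal axis), with a colour per gene. All 7 stand highest in replicate 1 of 8 dpa, up to 116 TPM, while replicates 2 and 3 of 8 dpa are at 7.91 TPM or less.

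The ranking left out 10 dpa, so the level at 10 dpa varied freely below that at 8 dpa. In 81 members the 10 dpa mean was at least 50% of the 8 dpa mean, in 61 it was 10 to 50%, and in 8 it was under 10%. The median of 52.3% was 60.5%, 42.6% and 49.4% in the 3 libraries of 10 dpa taken singly, and 63.8% when replicate 1 of 8 dpa was left out. The highest shares belonged to TRITD2Av1G026900 (96.6%) and TRITD1Av1G230730 (95.9%). TRITD1Av1G230730 was broadly expressed, with 10.9, 9.06 and 12 TPM at 6 dpa, 17.3, 18.9 and 15.3 TPM at 8 dpa, 13.1, 15.6 and 20.6 TPM at 10 dpa and 8.44, 12.2 and 13.3 TPM at 20 dpa. It is 1 of the members whose TMM-scaled counts were highest at 20 dpa. The lowest shares were those of TRITD4Av1G008580 (0.322%) and TRITD5Bv1G002770 (1.88%).

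The timepoints on either side of the peak, 13 and 6 dpa, were set side by side. The rule used the means of both, without fixing which was lower, so the calls between them are given as a description. A gene was called at a false discovery rate (FDR, Benjamini-Hochberg over all 44240 genes) of at most 0.05 and a fold change over 1.5, in the quasi-likelihood test of edgeR. At 13 dpa against 6 dpa, 78 of the 150 members (52.0%) passed as lower and 2 as higher. Over all genes tested, 23.8% were called lower and 26.0% higher, and among the 3026 other genes highest at 8 dpa 24.4% were lower and 1.45% higher. The median log2 fold change of the members was -1.76, also with the 6 members without counts at 13 dpa set to the bound that 3 counts over the group give, against 0.01 over all genes. Without the 36 members that were at least 2-fold higher in replicate 1 of 8 dpa, 45 of 114 were lower and 2 higher.

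The members that passed as lower included abundant genes. TRITD7Av1G006260 averaged 38.8 ± 34.2 TPM at 13 dpa and 663 ± 223 TPM at 6 dpa (SD, n = 3 each), a log2 fold change of -3.78 (SE 0.94), and its libraries did not overlap. TRITD5Bv1G253060 (5B, 700618237 to 700618854) had 14.4, 8.5 and 0.615 TPM at 13 dpa, against 263, 68.6 and 130 TPM at 6 dpa, with a log2 fold change of -4.03 (SE 0.89). Both genes of the pair on 4A were without counts at 13 dpa. TRITD4Av1G008590 was at least 134-fold lower than at 6 dpa and TRITD4Av1G008580 at least 106-fold lower, taking 3 counts over the group as the floor.

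The members that passed as higher at 13 dpa were TRITD5Bv1G123540 and TRITD5Av1G257330. TRITD5Bv1G123540 (5B, 366872610 to 366874882) had 27.6, 33.8 and 13.3 TPM at 13 dpa, against 13.7, 6.14 and 12.4 TPM at 6 dpa, with a log2 fold change of 1.51 (SE 0.54). The lowest library of 13 dpa overlapped the highest of 6 dpa. TRITD5Av1G257330 (5A, 665788949 to 665789230) had 30.3, 36.5 and 50.7 TPM at 13 dpa, against 51.5, 16.3 and 35 TPM at 6 dpa, with a log2 fold change of 0.85 (SE 0.35), and its libraries overlapped widely. No member passed as higher when library totals replaced TMM factors or when log2 TPM was tested with limma. Scaling by library totals moved the median over all genes by -0.54.

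Timepoints after the peak that the ranking did not use were then compared. The entry condition still held their means below that of 8 dpa, and the ranking held the 13 dpa mean below it too. A decline between them is therefore not independent of the choice of members. At 20 dpa against 15 dpa, 28 members (18.7%) were lower by edgeR and 0 were higher, where 1.32% of all genes were lower and 2.80% higher. Among the other genes highest at 8 dpa, 1.82% were lower and 0.397% higher. At an unadjusted p below 0.05, 62 were lower and 8 higher, where 9.03% of all genes were lower and 12.8% higher. DESeq2 called 46 lower and 3 higher, where it called 2.39% of all genes lower and 5.59% higher. With limma on log2(TPM + 0.1), 44 were lower and 0 higher, where 3.77% of all genes were lower and 1.21% higher. TRITD4Av1G256320 had 0.666, 0.333 and 0.276 TPM at 20 dpa, against 19.6, 9.24 and 5.09 TPM at 15 dpa, with no overlap and a log2 fold change of -4.57 (adjusted p = 0.00583 by edgeR). TRITD2Av1G292000 had no counts at 20 dpa, against 5.80, 6.26 and 0.719 TPM at 15 dpa, and was at least 70.5-fold lower (adjusted p = 0.0222). TRITD5Bv1G253060 had no counts at 20 dpa either, against 2.34, 0.913 and 0.543 TPM at 15 dpa, and was at least 56.9-fold lower (adjusted p = 0.0415). The number of calls rested on the libraries: it was 3 without replicate 1 of 15 dpa, 2 without replicate 2 of 20 dpa and 3 without replicate 3 of 20 dpa. When only the 6 libraries compared were fitted, 131 members were tested and 3 were lower, where 0.0777% of all genes were lower.

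At 30 dpa against 20 dpa, 38 members (25.3%) were lower by edgeR and 0 were higher, where 7.16% of all genes were lower and 3.08% higher. At an unadjusted p below 0.05, 58 were lower and 0 higher, where 15.2% of all genes were lower and 9.65% higher, and neither DESeq2 nor limma called any member higher. The count of lower members was 68 with library totals in place of TMM factors (29.3% of all genes) and 58 with limma on log2(TPM + 0.1) (14.9% of all genes). When only the 6 libraries compared were fitted, 101 members were tested and 19 were lower (1.92% of all genes). TRITD0Uv1G055800 had no counts at 30 dpa, against 3.77, 2.08 and 1.49 TPM at 20 dpa, and was at least 73.4-fold lower (adjusted p = 0.000676). TRITD1Av1G205890 had 0.137, 0 and 0.0215 TPM at 30 dpa, against 16.4, 4.89 and 4.23 TPM at 20 dpa, with a log2 fold change of -7.06 (adjusted p = 0.000102 by edgeR). TRITD7Av1G005960 had 0.230, 0.538 and 3.16 TPM at 30 dpa, against 15.4, 15.2 and 9.41 TPM at 20 dpa, with a log2 fold change of -2.72 (adjusted p = 0.0211). In each of these genes the libraries of 30 dpa lay below those of 20 dpa.

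Comparisons that include 8 dpa were used to choose the members and are given as a description. At 8 dpa against 6 dpa, 5 members (3.33%) passed the same threshold as higher, where 2.57% of all genes did. At 10 dpa against 8 dpa, 8 members (5.33%) passed as lower, where 4.63% did. These counts changed with the fit. When only the 6 libraries compared were fitted, 43 members were higher at 8 dpa than at 6 dpa (2.61% of all genes) and 43 were lower at 10 dpa than at 8 dpa (8.95% of all genes). With limma on log2(TPM + 1) the counts were 27 (2.15% of all genes) and 41 (8.55% of all genes), and on leaving out single libraries they ranged from 0 to 18 and from 5 to 17. At 13 dpa against 8 dpa, 121 members (80.7%) passed as lower, where 19.2% did.

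At the lower end of the ranking, the last members were TRITD5Av1G126890 and TRITD6Av1G182940 and the genes just outside were TRITD2Bv1G060120 and TRITD1Bv1G103990, all with a ranking value of 0.64. TRITD5Av1G126890 had 158, 39.4 and 33.9 TPM at 8 dpa, against 31.7, 56.7 and 59.7 TPM at 6 dpa, so its membership rested on replicate 1. TRITD6Av1G182940 had 82.0, 83.2 and 82.6 TPM at 8 dpa, against 72.1, 40.1 and 46.7 TPM at 6 dpa, with 75.8 ± 13.0 TPM at 10 dpa (SD, n = 3). Outside, TRITD2Bv1G060120 averaged 197 ± 18.2 TPM at 8 dpa and 127 ± 10.8 TPM at 6 dpa, and TRITD1Bv1G103990 168 ± 37.4 TPM at 8 dpa and 108 ± 23.8 TPM at 6 dpa (SD, n = 3 each). Genes on both sides of this limit rose little above 6 dpa.

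The exclusion of starch-related genes left out 8 genes that met the other conditions, and 2 of these had ranking values that would have placed them among the members. They are the pair TRITD5Av1G228350 and TRITD5Bv1G227200 of AMY1, a secreted alpha-amylase that degrades starch, with values of 0.84 and 0.97. TRITD5Av1G228350 had 84.3, 121 and 128 TPM at 6 dpa, 312, 150 and 135 TPM at 8 dpa, 70.4, 65.5 and 74.4 TPM at 10 dpa and 11.5, 1.26 and 0.0217 TPM at 13 dpa. TRITD5Bv1G227200 had 36.9, 54.0 and 52.2 TPM at 6 dpa, 139, 83.7 and 56.6 TPM at 8 dpa and 34.2, 14.6 and 30.1 TPM at 10 dpa. As in most members, replicate 1 of 8 dpa was the highest, and both genes were at 0 TPM in all libraries of 18, 20 and 30 dpa.

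The members had short coding sequences. Their median coding length was 610.5 bases, against 1071 bases for the 3026 other genes highest at 8 dpa and 849 bases for all genes that reached a mean of 10 TPM at some timepoint. A coding length of 450 bases or less was found in 47 members (31.3%), against 12.7% of the other genes. Among all genes that reached a mean of 10 TPM the share was 21.4%. Among the 36 members that were at least 2-fold higher in replicate 1 of 8 dpa it was found in 23 (63.9%), and among the remaining 114 in 24 (21.1%). The share in the remaining 114 was thus close to that of all genes reaching 10 TPM, while their median length was 636 bases. In 56 of the 141 placed members (39.7%) the annotated gene was exactly as long as its coding sequence, with no intron and no untranslated region annotated. This was so in 12% of the other genes highest at 8 dpa, 13.6% of genes with at least 10 TPM and 23.6% of all genes. These shares were not used by the rule and are given without a test. TPM divides by effective length, which is small and less certain for short transcripts.

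**Figure D5:**
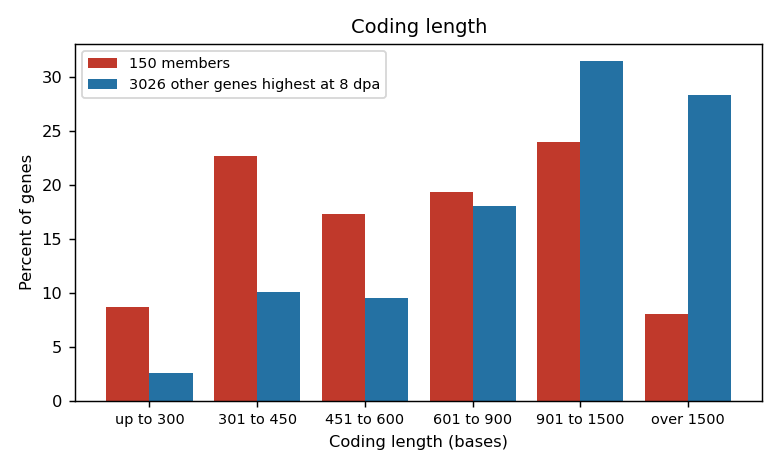
Percent of genes (vertical axis) in each class of coding length in bases (horizontal axis) for the 150 members (red) and the 3026 other genes highest at 8 dpa (blue). Members are more often short: 8.67% are up to 300 bases and 22.7% are longer but at most 450 bases, against 2.54% and 10.1% of the other genes.

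By subgenome, 84 members were on A chromosomes, 57 on B chromosomes and 9 were unplaced, against 49.5%, 48.5% and 1.92% of the other genes highest at 8 dpa. Chromosome 7A held the most, 18 members (12%, against 7.11% of the other genes). Of the 141 placed members, 33 (23.4%) lay within 20 Mb of the outermost annotated gene of their chromosome, against 9.33% of the other genes. Within 1 Mb of each other lay 22 members, in 10 runs, and 2 of these runs held 3 genes, those on 5B and 7A described above.

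Some members share their values or their length with another member. Besides the unplaced pair at the head of the ranking, TRITD0Uv1G104480 and TRITD6Bv1G013790 (coding length 531 bases each) had identical values in every library, so the 150 members gave 148 distinct profiles. TRITD6Bv1G013790 had 299, 133 and 141 TPM at 6 dpa, 435, 266 and 403 TPM at 8 dpa and 228, 208 and 200 TPM at 10 dpa, and its annotated span on 6B (38868041 to 38873321) overlaps that of another member of the same coding length, TRITD6Bv1G013780. The division of reads between these genes is uncertain. An A and a B member of the same chromosome number had equal coding length in 9 combinations, and no sequence was compared. TRITD3Av1G229020 and TRITD3Bv1G215110, singled out from these after their values were seen, both have 348 bases. TRITD3Av1G229020 had 162, 203 and 232 TPM at 6 dpa, 580, 232 and 278 TPM at 8 dpa, 286, 106 and 92.6 TPM at 10 dpa and 26.4, 4.72 and 1.1 TPM at 13 dpa. TRITD3Bv1G215110 had 193, 216 and 227 TPM at 6 dpa, 629, 322 and 324 TPM at 8 dpa, 361, 184 and 168 TPM at 10 dpa and 24.1, 5.33 and 1.84 TPM at 13 dpa. Both genes were highest in replicate 1 at 8, 10 and 13 dpa. The log2 fold change at 13 dpa against 6 dpa was -3.59 (SE 0.71) in TRITD3Av1G229020 and -3.74 (SE 0.66) in TRITD3Bv1G215110. Equal length alone does not show that they are copies of each other.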

How the data were processed

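RNA of dissected Kronos endosperm was sequenced in 24 libraries, 8 timepoints with 3 replicates. The authors pseudoaligned 150 bp paired reads with kallisto (version 0.46.1, per the notes of the submitters) to 1 canonical transcript per gene of the Svevo v1 annotation. The deposited estimated counts are not scaled between libraries, and the deposited TPM values come from the same runs. Groups follow the labelled times, and depth was 56180606 to 115800050 estimated counts per library. A count of 0 allows up to 3 counts, for counting error only.

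Members were chosen from TPM means. Estimated counts, rounded to whole numbers, were filtered at 10 counts in at least 3 libraries and fitted over all 24 libraries with time as a factor (edgeR 4.0.16 under R 4.3.3, its quasi-likelihood test with TMM scaling). A call needed an FDR of at most 0.05 and a fold change over 1.5. This test gives no SE. Each SE printed was worked back as the absolute log2 fold change over the square root of the F statistic. The test was checked on simulated counts. DESeq2 1.42.0, limma 3.58.1, other scalings, filters and thresholds, a replicate block and the omission of each library were alternatives. Coordinates come from the RefSeq table of assembly Svevo.v1, the build of the authors, in which 141 members were found. Python 3.11.15 was used for tables and plots.

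The members and lists were chosen with earlier results of these data known. Genes were named by a rule: within the 150, those highest in the ranking, those highest in TPM at 8 dpa, runs of at least 3 neighbours, the genes beside the limit, called genes with the largest fold changes, and extremes of the 10 dpa share, up to 30 in all. The genes TRITD5Av1G002730, TRITD5Av1G002740, TRITD0Uv1G104480, TRITD6Bv1G013790, TRITD6Bv1G013780, TRITD3Av1G229020 and TRITD3Bv1G215110 fall outside it and were named after their values were seen. Sequences and product names were not used here.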

Additional observations from a re-analysis of the deposited data

How the results depend on the processing

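Membership was moderately stable. Of the 150 members, the rule returned 147 with a pseudocount of 1 TPM, 106 with timepoint medians, 122 with TMM-scaled CPM, 123 and 115 with minimums of 5 and 20 TPM, and 110 with 10 dpa in place of 13 dpa. Leaving out a library returned 105 to 150, the fewest without replicate 1 of 8 dpa. The highest mean stayed at 8 dpa in 129 to 150 members on leaving out a library and in 131 with TMM-scaled CPM. Members without overlap numbered 29 with TMM-scaled CPM and 56 to 75 on leaving out a library. Leaving out a library can only keep or raise this number, so the range says nothing on its stability. The share over all genes, 1.14%, is given only for the main setting. The median 10 dpa share was 46.8% to 63.8%, and 63.8% without replicate 1 of 8 dpa.

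Calls of members at 13 dpa against 6 dpa numbered 80 and 67 to 95 on leaving out a library, and those at 13 dpa against 8 dpa 121 and 105 to 124. Over all 44240 genes tested, 22007 and 17891 were called. With library totals the calls of members numbered 113 and 143 (23506 and 19154 of all genes). With limma they numbered 100 and 140 at a pseudocount of 0.1 (22660 and 18619 of all genes). At a pseudocount of 1 they numbered 108 and 141 (16994 and 13880 of all genes). With the 6 libraries compared alone they numbered 71 and 125 (20517 and 18136 of 44126 genes). At 20 dpa against 15 dpa the 28 calls became 49 with DESeq2, 47 with library totals (4.63% of all genes lower) and 44 with limma on log2(TPM + 0.1). With the 6 libraries compared alone, 3 of the 131 members tested were called. On leaving out a library the calls numbered 2 to 40. There were 3 without replicate 1 of 15 dpa, 2 without replicate 2 and 3 without replicate 3 of 20 dpa. At 30 dpa against 20 dpa the 38 became 68 with library totals, 58 with limma on log2(TPM + 0.1) and 31 to 43 on leaving out a library. With the 6 libraries alone, 19 of the 101 members tested were called. At 8 dpa against 6 dpa the 5 became 3 with an absolute log2 fold change over 1.5 (576 of all genes higher). They became 12 with DESeq2 (3.70% of all genes higher) and 3 with library totals (1.95%). With limma they became 11 and 27 at pseudocounts of 0.1 and 1 (2.56% and 2.15%), and with the 6 libraries alone 43 (2.61%). They numbered 0 to 18 on leaving out a library. On leaving out replicates 1, 2 and 3 of 6 dpa in turn there were 17, 0 and 0 calls, and likewise 1, 0 and 3 for 8 dpa. There were 3 calls without replicate 3 of 10 dpa, 9 without replicate 1 of 13 dpa, 18 without replicate 3 of 13 dpa, and 8 without replicate 1 of 20 dpa. At 10 dpa against 8 dpa the 8 became 18 with library totals, 25 and 41 with limma at pseudocounts of 0.1 and 1, 43 with the 6 libraries alone and 5 to 17 on leaving out a library, 5 without replicate 1 of 8 dpa, 17 without replicate 1 and 5 without replicate 2 of 10 dpa, and 17 without replicate 3 of 13 dpa. The cause of these differences was not tested.

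Replicate numbers are not stated to mark shared plants. Over all genes tested, the correlations of deviations between same-numbered libraries ran from -0.164 to 0.328. Only at 13 dpa against 6 dpa were they positive in all 3 pairs, at 0.0169 to 0.0839. They were not computed over the members alone. With a replicate block the calls numbered 90, 32 and 39 in the comparisons of 13 with 6, 20 with 15 and 30 with 20 dpa, and 9, 20 and 125 in those of 8 with 6, 10 with 8 and 13 with 8 dpa. The alternative without the 36 members at least 2-fold higher in replicate 1 of 8 dpa was chosen after seeing the data. It left 47, 27, 36, 5, 4 and 85 calls in the same order. Of 298 values recomputed under alternatives, 260 stayed within 1.5 times the main count or 1 SD, and 38 did not. The check was on size only and did not compare the direction of the calls.

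Differences between 3 libraries and 3 are limited by the replicate spread at 8, 10 and 13 dpa, and late levels of members near 0 counts cannot be ranked.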
